A study of Mus musculus with 2 samples.

Results

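The transcripts described here are those of 10 transcription factor genes of the early response, most of which macrophages switch on soon after a stimulus: the FOS genes Fos, Fosb, Fosl1 and Fosl2, the JUN genes Jun, Junb and Jund, the gene of activating transcription factor 3 (Atf3), and the early growth response genes Egr1 and Egr2. They were taken by symbol from the deposited tables, and all 10 were among the 16263 genes listed. The samples were 2 libraries of bone marrow-derived macrophages from C57BL/6 mice, 1 from wild-type animals (WT) and 1 from animals labelled SIRPα-/- (SIRPα-KO). Marrow cells had been cultured with M-CSF, the macrophage growth factor, for 5 days. Both cultures then received IFNγ at 20 ng/ml and LPS at 100 ng/ml for 6 h with mCD47.ex present, so neither library shows unstimulated cells or cells without mCD47.ex. Cells of 5 mice were mixed per genotype before RNA extraction, and the labels give neither the age of the mice nor the form of the targeted allele. The comparison asks how transcripts differ between activated macrophages with and without SIRPα, an inhibitory receptor for CD47. With 1 library per genotype no spread between replicates can be measured, no test was made, and every difference below describes these 2 libraries.

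AP-1 is a dimer of basic leucine zipper proteins. JUN proteins pair with each other or with FOS and ATF proteins, whereas FOS proteins bind DNA as partners of JUN proteins, so the composition of the pool helps to set which sites are bound. ATF3 is induced by Toll-like receptor signals in macrophages and limits the transcription of several cytokine genes. EGR1 and EGR2 are zinc finger proteins whose genes respond to growth factors and MAP kinases through serum response factor (SRF), and they take part in macrophage differentiation. Most of these transcripts are made within minutes of a stimulus and are short-lived, so a sample at 6 h is taken after the first burst.

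RefSeq promoter sequences (build GRCm38.p6, from 250 bases before to 50 bases after a transcription start) matched 8 of the 10 genes, all but Fosl1 and Egr1. The windows of 4 genes are printed because they carry the pattern described below: Egr2 and Fos, with the lowest ratios of SIRPα-KO to WT, and Atf3 and Junb, the most abundant transcripts. Capitals mark the core of the cyclic AMP response element (TGACG, on either strand) and the SRF box, the element through which SRF acts.
Egr2 (chr10:67537619-67537918, + strand): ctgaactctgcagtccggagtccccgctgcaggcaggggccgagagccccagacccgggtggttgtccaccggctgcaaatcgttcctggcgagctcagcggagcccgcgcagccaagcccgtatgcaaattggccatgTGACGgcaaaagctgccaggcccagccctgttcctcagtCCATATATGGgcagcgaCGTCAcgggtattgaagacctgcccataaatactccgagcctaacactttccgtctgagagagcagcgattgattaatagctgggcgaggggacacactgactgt
Fos (chr12:85473640-85473939, + strand): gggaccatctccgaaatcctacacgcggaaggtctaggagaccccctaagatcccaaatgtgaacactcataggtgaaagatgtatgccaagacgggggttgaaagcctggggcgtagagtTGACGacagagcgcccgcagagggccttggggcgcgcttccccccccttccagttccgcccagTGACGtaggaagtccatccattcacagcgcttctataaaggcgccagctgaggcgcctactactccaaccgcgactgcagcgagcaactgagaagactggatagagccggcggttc
Atf3 (chr1:191183284-191183583, - strand): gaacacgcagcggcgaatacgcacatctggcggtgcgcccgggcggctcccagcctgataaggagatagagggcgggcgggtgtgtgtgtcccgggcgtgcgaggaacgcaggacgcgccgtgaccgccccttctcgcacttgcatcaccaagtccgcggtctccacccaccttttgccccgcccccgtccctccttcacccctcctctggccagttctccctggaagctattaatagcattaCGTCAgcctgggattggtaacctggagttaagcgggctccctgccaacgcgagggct
Junb (chr8:84978699-84978998, - strand): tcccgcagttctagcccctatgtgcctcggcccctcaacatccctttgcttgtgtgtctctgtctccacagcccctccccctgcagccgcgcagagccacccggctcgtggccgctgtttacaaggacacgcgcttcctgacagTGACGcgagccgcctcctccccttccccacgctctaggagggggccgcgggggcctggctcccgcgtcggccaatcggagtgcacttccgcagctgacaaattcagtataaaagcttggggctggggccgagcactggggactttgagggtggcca

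The Egr2 window held an SRF box, CCATATATGG, at positions -72 to -63 from the start (position 0), between TGACG cores that begin at -111 and -55. The Fos window held cores that begin at -129 and -66, Junb had 1 that begins at -106, and Atf3 had 1 that begins at -7. In all, 5 of the 8 matched genes (Fos, Fosb, Junb, Atf3 and Egr2) had TGACG on either strand, against 20.8% of 32851 promoter windows of the same length. The SRF box was in 1 of 8, against 1.63% of windows. Sites more than 250 bases before the start were not searched. A window without a match, as that of Fos for the SRF box, therefore does not show that the gene lacks the site. The EGR site GCGNGGGCG was in 2 of 8 (Fosb and Fosl2), against 5.55%, and the TATA box TATAAA in 2 of 8 (Fos and Junb), against 13.6%. TATAAA began at -33 in Fos but at 0 in Junb. The RefSeq start of Junb lay 30 bases from the GENCODE start, so positions given for Junb are uncertain. The AP-1 site TGANTCA, found in 7.81% of windows, and the ETS motif CCGGAA, found in 14.9%, were in none of the 8 (0 of 8). The shorter ETS core GGAA, which occurs on 1 strand or the other in each of the printed windows, was not searched. All motifs were searched on both strands, and no motif listed contains another, although matches may share bases. These matches describe letters in a window and not bound sites. For Jund and Fosl2 the RefSeq start lay 1210 and 671 bases from the start of the GENCODE transcript matched to the deposited accession, so their windows may not be the ones used by these transcripts. The 4 genes printed were all lower in SIRPα-KO, by between 1.21-fold (Junb) and 3.08-fold (Egr2), and they were picked with those ratios known.

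Levels are given as FPKM, a fragment count normalized for transcript length and library size. Since length is divided out, genes can be compared with each other. The depth estimated from the low values was 11100000 reads for WT and 10960000 for SIRPα-KO. Among the 10 genes, Atf3 and Junb were abundant, Jund and Jun intermediate, Fosl2, Fos, Egr2 and Egr1 low, and Fosl1 and Fosb close to 0. The order from Atf3 down to Fosb was the same in both libraries, with the step from Atf3 to Junb narrowing from 260.46 against 215.01 FPKM in WT to 178.98 against 177.41 in SIRPα-KO. Egr2 and Egr1 were likewise close to each other in SIRPα-KO. Whether such neighbours differ cannot be judged without replicates.

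**Figure D1:**
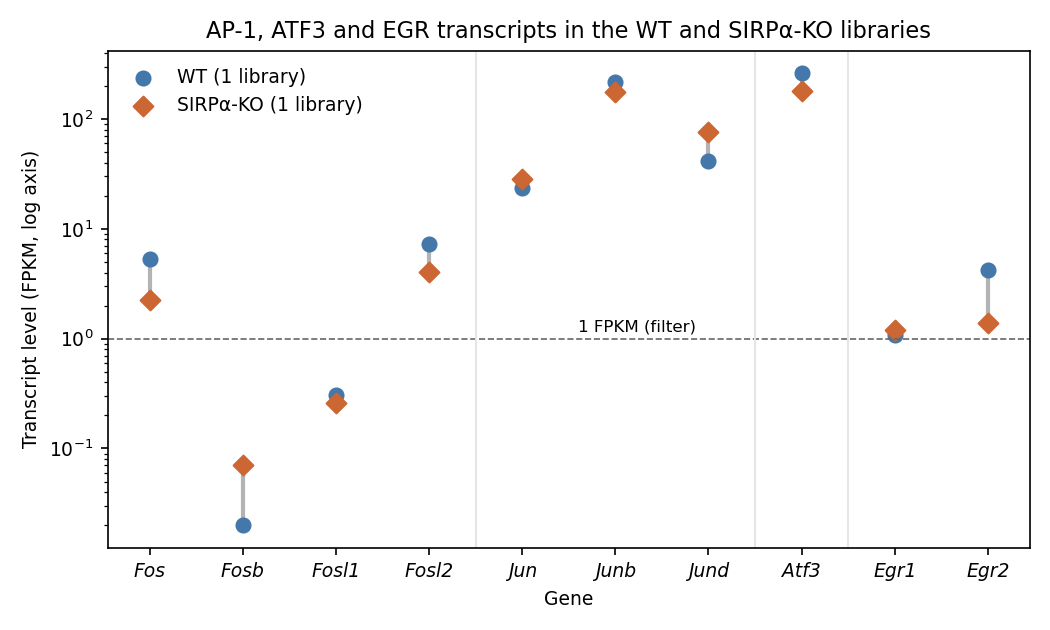
Level of each gene in FPKM (log axis) in the WT library (circles) and the SIRPα-KO library (diamonds), grouped as FOS, JUN, ATF3 and EGR genes. Egr2, Fos and Fosl2 are lower in SIRPα-KO and Jund is higher, while Fosl1 and Fosb lie under the dashed line at 1 FPKM in both libraries.

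Ratios of SIRPα-KO to WT were taken on the log2(FPKM + 1) scale, which understates differences of low genes, and a gene was called when its ratio reached 2-fold on that scale. Fold values given for single genes are plain ratios of FPKM, without the added 1. A gene was kept when either library reached 1 FPKM, which left 10092 genes and 8 of the 10 described here. Of all genes kept, 3.43% were called higher in SIRPα-KO and 4.3% lower, together 7.73%. Of the 8, 0 were called higher and 1, Egr2, was called lower, which is 12.5% of a set so small that 1 gene makes the whole count. Fos was short of the limit on the log2 scale and past it with a smaller pseudocount or another scaling between libraries, and Egr2 was not called with a pseudocount of 5. The median log2 ratio of the 8 was -0.41, against 0.06 over all genes kept, with 5 genes below 0 and 3 above. A lower transcript level in a bulk library can come from fewer cells of a type or from less RNA per cell, and these cannot be told apart here.

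**Figure D2:**
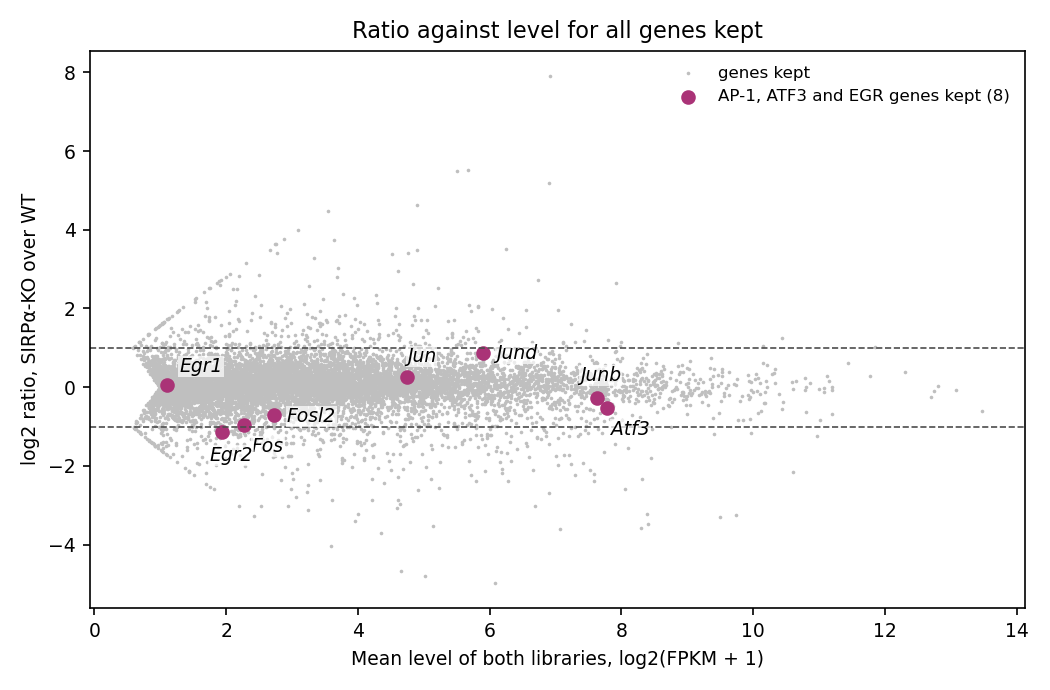
Each point is 1 of the 10092 genes kept, by the log2 of its mean level (FPKM + 1) in both libraries and its log2 ratio of SIRPα-KO to WT; dashed lines mark 2-fold. The 8 named genes lie at low to high levels, with 294 genes above Atf3, the highest of them, in WT and 433 in SIRPα-KO. Egr2 lies beyond the lower line at -1.14, Fos just inside it at -0.96, and Jund inside the upper line at 0.87.

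Among the FOS genes, the partners that cannot form AP-1 without a JUN protein, both detected members were lower in SIRPα-KO. Fos, the classical immediate early gene, measured 5.35 FPKM in WT against 2.26 in SIRPα-KO. Its level was 2.37-fold lower (95% counting interval 1.7 to 3.35) and its log2 ratio was -0.96. From the estimated depth, these values stand for roughly 125 WT reads and 52.2 SIRPα-KO reads. Counting intervals here rest on such estimated reads and cover counting error only, not the variation between cultures or mice. Of the genes kept, 4.6% had a log2 ratio as low as that of Fos.

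Fosl2, which encodes the Fos-related protein FRA-2, was the most abundant FOS transcript in both libraries. It measured 7.27 FPKM in WT against 4.03 in SIRPα-KO, a log2 ratio of -0.72. The level was 1.8-fold lower (counting interval 1.56 to 2.09), and 7.6% of genes kept had a ratio as low. Fosl1, which encodes FRA-1, was at 0.31 and 0.26 FPKM, about 6.41 and 5.31 reads, a ratio of WT to SIRPα-KO of 1.19 with a counting interval from 0.301 to 4.91. Fosb was at 0.02 and 0.07 FPKM, about 0.84 and 2.9 reads, which gives a ratio of 3.5 with a counting interval from 0.244 to 160. For both genes the libraries are too shallow to show a difference. In addition 58.9% of the 50-base words of Fosl1 occur on the opposite strand of Ccdc85b (0.41 FPKM in WT, 0.34 in SIRPα-KO), so without strand its reads cannot be assigned with certainty.

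The JUN genes differed in direction, and their sum hardly differed. Junb, which encodes a JUN protein that activates less strongly than c-Jun at many promoters, measured 215.01 FPKM in WT against 177.41 in SIRPα-KO. It was 1.21-fold lower (counting interval 1.16 to 1.27). Jund, which is present in most resting cells and is the least dependent of the family on a stimulus, measured 41.37 FPKM in WT against 76.42 in SIRPα-KO. It was 1.85-fold higher (counting interval 1.69 to 2.02), with a log2 ratio of 0.87 that 4.7% of genes kept reached or passed. Jun itself, the gene of c-Jun, measured 23.3 FPKM in WT against 28.16 in SIRPα-KO, 1.21-fold higher (counting interval 1.1 to 1.33). None of the JUN genes reached 2-fold under any pseudocount or scaling tried. A pseudocount only draws a ratio towards 1, and the scalings changed ratios too little to take any of them there.

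Jund carries a limit of annotation. Of its 50-base words 48.3% occur on the opposite strand of Gm11175, which was not analysed here, and the same holds for 5.83% of the words of Jun with Junos. No source used here says whether counting used strand, so reads of Jund and of an overlapping antisense RNA cannot be told apart. Jund also had the highest GC content of the 10 transcripts, 67.1%. The 995 genes of the same GC decile (57.9% to 82.9%) had a median log2 ratio of -0.01, and the part of GC content in the Jund ratio was not tested.

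Summed over the family, JUN transcripts came to 279.68 FPKM in WT against 281.99 in SIRPα-KO, a ratio of 1.01 that turned to 0.954 with median-of-ratios or trimmed-mean scaling. What differed was the composition. Junb made up 76.9% of the WT sum and 62.9% of the SIRPα-KO sum, and Jund 14.8% and 27.1%. The ratio of Junb to Jund was therefore 5.2 in WT and 2.32 in SIRPα-KO. Jun stayed the smallest part, at 8.33% and 9.99%. FOS transcripts summed to 12.95 FPKM in WT against 6.62 in SIRPα-KO, 1.96-fold lower. There was 21.6 times as much JUN as FOS transcript in WT and 42.6 times as much in SIRPα-KO. These ratios compare transcripts and say nothing of the proteins or of the dimers formed.

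**Figure D3:**
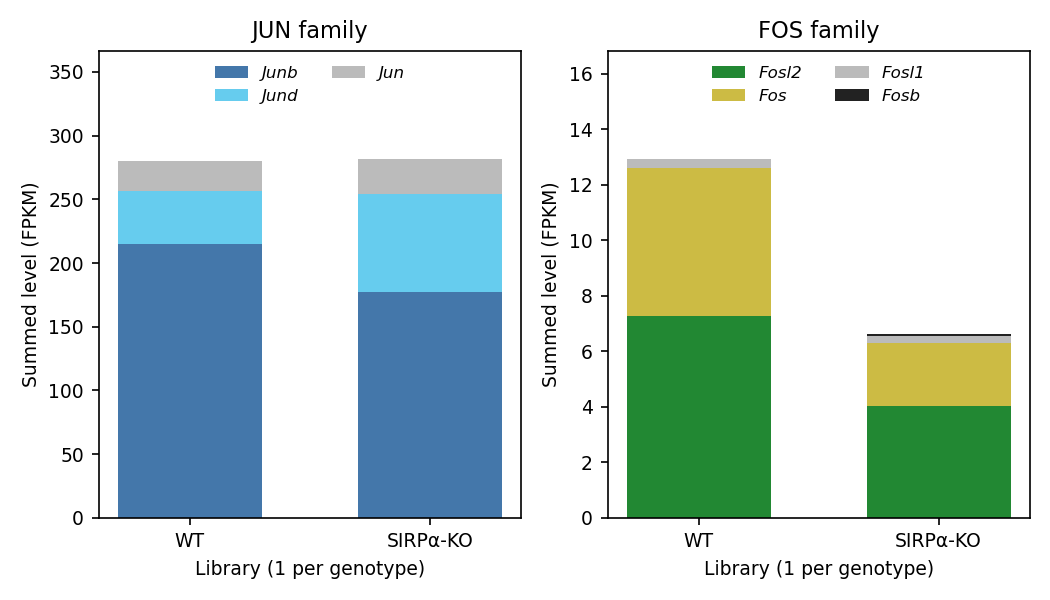
Stacked bars give the summed level in FPKM of the JUN genes (left) and FOS genes (right) in the WT and SIRPα-KO libraries, on linear axes that start at 0 and differ between panels. The JUN sums are alike at 279.68 and 281.99 FPKM with a larger Jund part in SIRPα-KO, whereas the FOS sum is 12.95 FPKM in WT and 6.62 in SIRPα-KO.

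Atf3 was the most abundant of the 10 transcripts in both libraries. It measured 260.46 FPKM in WT against 178.98 in SIRPα-KO, 1.46-fold lower (counting interval 1.4 to 1.52), with a log2 ratio of -0.54. In WT 294 of the genes kept had a higher level than Atf3, and in SIRPα-KO 433 did. None of its words occurred in another gene. Counting error is small for a transcript with about 5740 and 3890 reads, but 11.4% of genes kept had a log2 ratio at least as low, and the variation between cultures is not known.

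The EGR genes were low in both libraries. Egr2, also used as a marker of alternatively activated macrophages, measured 4.25 FPKM in WT against 1.38 in SIRPα-KO. It was 3.08-fold lower (counting interval 2.18 to 4.4), from about 140 and 44.8 reads, and its log2 ratio of -1.14 was reached by 3.3% of genes kept. Egr1, the prototype of the family, measured 1.09 FPKM in WT against 1.19 in SIRPα-KO. Its ratio of 1.09 had a counting interval from 0.683 to 1.76, so no difference was detectable at this depth. Egr2 was thus well above Egr1 in WT and close to it in SIRPα-KO. Of the sum of both, Egr2 made up 79.6% in WT and 53.7% in SIRPα-KO.

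**Figure D4:**
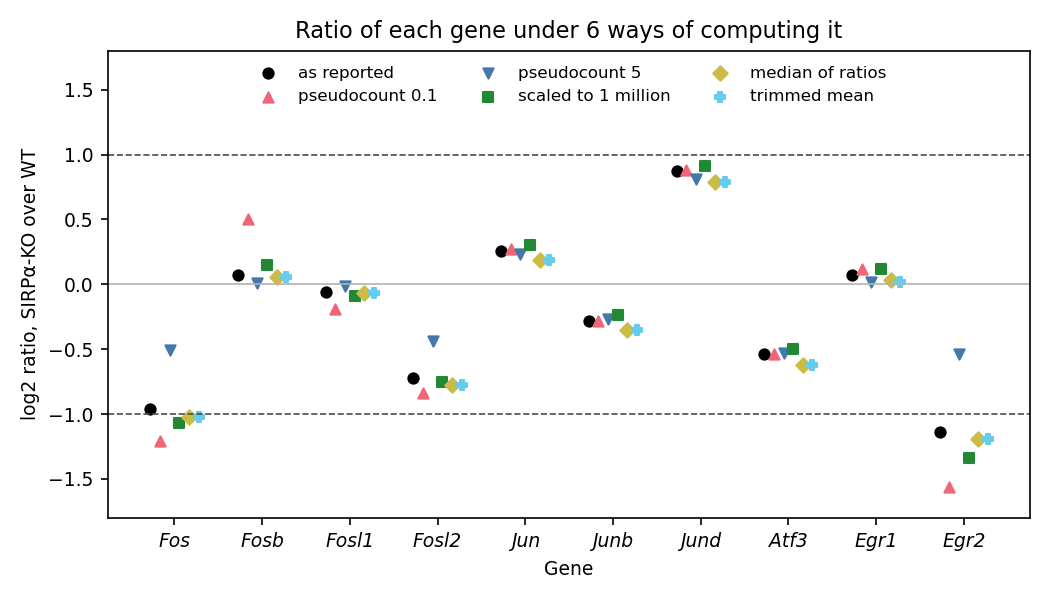
The log2 ratio of SIRPα-KO to WT of each gene as reported and under other pseudocounts and scalings, with dashed lines at 2-fold. No gene changes sign, which these pseudocounts and scalings could not have brought about. Egr2 runs from -1.56 to -0.54 and Fos from -1.21 to -0.51 depending mainly on the pseudocount, and Jund stays between 0.79 and 0.91.

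Genes annotated in the deposited tables with a transcription factor function give a second background. Without the genes described here, 590 of them were kept, of which 10 (1.69%) were called higher and 22 (3.73%) lower, with a median log2 ratio of 0.08. Other basic leucine zipper factors, many of them possible partners of JUN or FOS proteins, had a median of 0.22 over the 24 kept of 25 reported here, with 1 of these called higher. Atf5, a factor of the amino acid and unfolded protein response, was higher at 4.44 FPKM in WT against 10.06 in SIRPα-KO. The most abundant by the mean of both libraries, though not in SIRPα-KO alone, was Nfe2l2, which encodes NRF2, at 145.56 and 111.0 FPKM. Batf, which pairs with JUN proteins in place of FOS and was named after its values were seen, measured 57.55 FPKM in WT against 89.44 in SIRPα-KO, short of 2-fold. There was thus 4.44 times as much Batf as summed FOS transcript in WT and 13.5 times as much in SIRPα-KO.

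Regulators of these genes are given beside the 3.43% of all genes kept that were called higher and the 4.3% called lower. Lists this small cannot be told apart from those shares. For SRF and its partners, 6 of 6 were kept, 0 were higher and 1 lower, and the median log2 ratio was 0.04. That gene was Elk3, an ETS factor that acts with SRF and can repress Fos, at 20.42 FPKM in WT against 1.96 in SIRPα-KO, while Srf itself, named outside the rule for genes of a list, was at 3.79 and 3.89 FPKM. Kinases of the MAP kinase cascades had a median of -0.06 over 17 kept of 18, with 0 higher and 0 lower. The most abundant was Mapkapk2, a kinase downstream of p38, at 161.85 and 114.15 FPKM. Ubiquitin ligases that act on JUN proteins had a median of 0.16 over 4 kept, with 0 called and Rfwd2, the gene of COP1, at 32.79 and 46.55 FPKM. Of the EGR family and the NAB corepressors that bind EGR proteins, 2 of 3 measured were kept and 0 called. Nab1 was at 22.04 and 20.21 FPKM, and Egr4 and Wt1 were not analysed here.

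Other immediate early and delayed early genes went both ways. Their median was 0.35 over 23 kept of 26, with 2 called higher (8.7%) and 4 lower (17.4%). Of all genes kept, 3.43% were called higher and 4.3% lower. Higher were Dusp5, a phosphatase of ERK (8.35 FPKM in WT, 29.28 in SIRPα-KO), and Phlda1 (3.96 and 11.74). Lower were Gem, a small GTPase (8.37 and 2.07), Klf10, a TGF-β-inducible repressor (6.06 and 1.55), and Zfp36, which encodes the mRNA decay factor tristetraprolin (185.97 and 75.78). Id1 was the remaining lower gene, at 2.2 and 0.5 FPKM. Klf6, the most abundant of the list, was at 248.75 and 350.64 FPKM and belongs to the 17 kept genes that reached neither limit.

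Many genes known from other work to be driven by AP-1 were lower in SIRPα-KO. Of 14 kept of 16, 0 were higher and 6 lower (42.9%, against 4.3% of all genes kept), and their median log2 ratio was -0.83. Ccnd1, the gene of cyclin D1, measured 42.07 FPKM in WT against 4.88 in SIRPα-KO. Plau, the gene of urokinase, was at 29.97 and 5.09 FPKM, and the chemokine gene Ccl2 at 528.66 and 104.27. The collagenase gene Mmp13, the most abundant in WT and by the mean of both libraries, measured 1387.34 FPKM in WT against 619.05 in SIRPα-KO. Timp1, a protease inhibitor (124.56 and 33.19), and the metallothionein Mt2 (147.0 and 60.83) were the other lower genes. Each of these genes also responds to other factors, and the list was assembled with earlier results of these libraries known, so its direction is no independent evidence.

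Of 8 genes known as EGR targets, all kept, 0 were higher and 2 lower, with a median of -0.42. Among all genes kept, 3.43% were called higher and 4.3% lower, and 8 genes are too few to be told apart from those shares. The EGR list was also chosen with earlier results of these libraries known, so its direction is no independent evidence. The lower genes encode the chains of platelet-derived growth factor: Pdgfa measured 12.61 FPKM in WT against 1.26 in SIRPα-KO, and Pdgfb 13.63 against 1.12. Icam1, an adhesion molecule and the most abundant of the list, was at 421.24 and 594.15 FPKM. Genes reported to be repressed by ATF3 in macrophages had a median of 0.21 over 7 kept and went in opposite directions. Of these 7, 14.3% were called higher and 28.6% lower, against 3.43% and 4.3% of all genes kept. Il6 was higher, at 93.63 FPKM in WT against 257.45 in SIRPα-KO. Ch25h (582.27 and 48.1 FPKM) and Ccl4 (619.77 and 54.69 FPKM) were lower. Nos2, the most abundant, was at 1336.13 and 879.98 FPKM. Of 11 housekeeping genes, 0 were called in either direction, against 3.43% higher and 4.3% lower of all genes kept. So small a list cannot be told apart from those shares. The median of the housekeeping genes was 0.12, with B2m, the most abundant, at 8832.82 and 8382.52 FPKM.

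**Figure D5:**
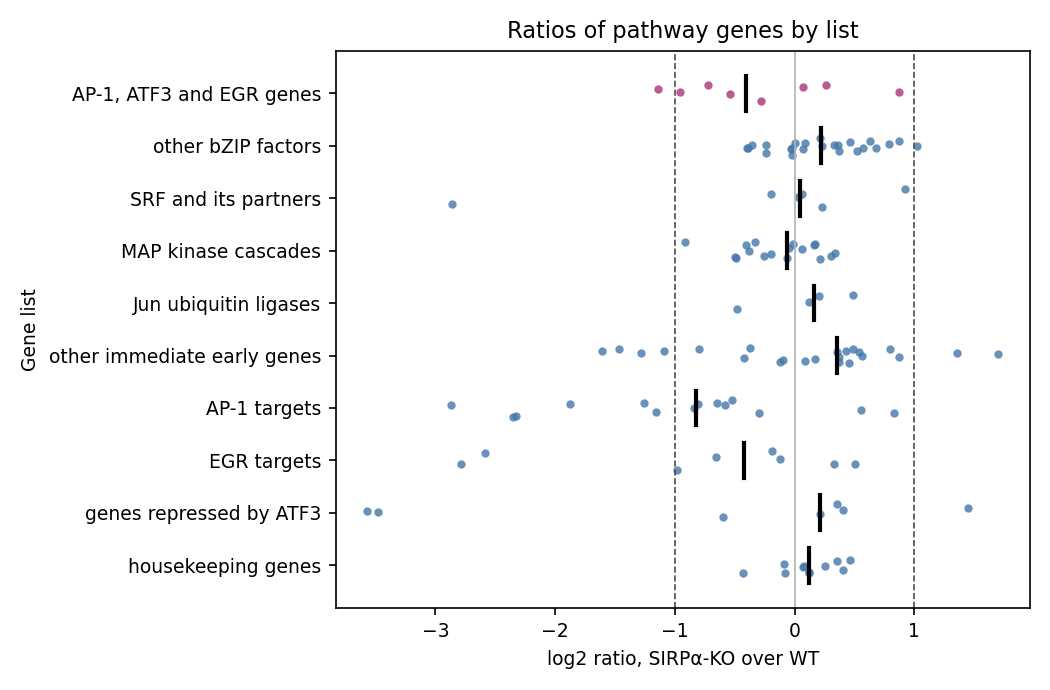
Log2 ratio of SIRPα-KO to WT for each kept and reported gene of 10 lists, the AP-1, ATF3 and EGR genes first and the housekeeping genes last, 1 point per gene, with the median as a black bar and dashed lines at 2-fold. Of the lists plotted, the AP-1 targets have the lowest median, -0.83, and the lists differ in size from 4 to 24 genes plotted.

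The libraries differed in other respects that move with these results. Sirpa, the targeted gene, measured 153.87 FPKM in WT against 71.47 in SIRPα-KO, so its transcript was still present in the library labelled as the knockout. All 10 macrophage markers were detected in both libraries, at sums of 11260 FPKM in WT and 11040 in SIRPα-KO, with Lyz2, the most abundant, at 7106.27 and 7207.7 and 1 of 10 called lower (Csf1r, 247.59 and 109.8 FPKM). The neutrophil markers summed to 418.6 and 191.7 FPKM, with 5 of 7 kept called lower (71.4%, against 4.3% of all genes kept). Retnlg, below the minimum, was at 0.46 FPKM in WT and 0 in the other table. The B cell markers summed to 5.54 and 2.32 FPKM with 0 of 3 kept called. The dendritic cell markers summed to 26.82 and 175.0 FPKM, and most of the SIRPα-KO sum was Ccl22 alone. Of 5 kept, 3 were called higher (60.0%, against 3.43% of all genes kept). These were Ccl22 (11.19 and 139.11), Ccr7 (6.93 and 23.81) and Dpp4 (1.32 and 4.95), whereas Xcr1 (3.3 and 2.99) and Clec9a (3.36 and 3.34), both named after their values were seen, were called in neither direction. Cd209a did not reach the minimum, with 0.18 FPKM in WT and a listed 0 in the other library. Flt3 (0.34 and 0.1) and Zbtb46 (0.2 and 0.7), both named after their values were seen, were also below it. The fibroblast markers summed to 8.84 and 11.68 FPKM, and T and NK cell markers to 6.32 and 7.04 with 3 of 5 at 0 in WT and 2 in SIRPα-KO. Xist, expressed from the inactive X chromosome of female cells, was at 47.54 and 0.91 FPKM and 4 Y-linked genes summed to 0.05 and 39.18, so the sex of the mice cannot be told apart from the genotype. Malat1, an RNA retained in the nucleus, measured 83.7 FPKM in WT against 32.93 in SIRPα-KO, and what part this difference has in the others was not tested. Neutrophils and dendritic cells also express FOS, JUN and EGR genes, and the part of these cells in the differences above was not tested.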

How the data were processed

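Transcript levels came from the 2 tables that the authors deposited, 1 per library. The deposited values were taken as FPKM, a unit inferred from decimals, from sums that differ (444294 in WT, 433460 in SIRPα-KO) and from low values that step with transcript length, because the tables name none. The submitters' processing notes name mm9, R 3.3.3 and DESeq2 without a role. No source used here names the aligner or the counter, or says whether strand was used.

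The depth that brought low values of genes with 1 transcript nearest to whole reads was 11100000 reads for WT and 10960000 for SIRPα-KO. At these depths 69.9% and 68.9% of 1211 low values per library lay within 0.15 of a whole read, against 26.9% and 28.2% with lengths shuffled. No count test was run, because there is 1 library per genotype. Reads per gene are estimates from that depth and the GENCODE M21 transcript length, known for 97.9% of genes, and 95% counting intervals of a ratio are exact binomial (Clopper-Pearson) limits on them.

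Ratios used log2(FPKM + 1), a minimum of 1 FPKM in 1 library and a limit of 2-fold. No p-value was computed. The code was tested on simulated data. Promoter windows are RefSeq's for GRCm38.p6, a later build than mm9, and were used for their sequence alone. Shared sequence was measured with 50-base words on both strands of GENCODE transcripts. Alternatives were other pseudocounts, filters, scalings and fold limits. The alternatives on GC content and on genes with antisense overlap were added after the values were seen. All named lists and genes were chosen with earlier results of these data known. The text names all 10 genes, and from each list up to 3 called genes per direction and the most abundant one by the mean of both libraries; 1 gene of the list of other basic leucine zipper factors is not reported here, and the counts and median of that list leave it out after its value was seen; names outside this rule are marked, are cell type markers listed at 0 or complete a count of called genes. Python 3.11.15, numpy 2.4.6, pandas 2.3.3 and scipy 1.17.1 were used.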

Additional observations from a re-analysis of the deposited data

How the results depend on the processing

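All 10 genes kept the sign of their log2 ratio under each pseudocount and scaling, but this was fixed in advance. A pseudocount cannot change the sign. The factors between libraries under the scalings (0.976 to 1.057) were closer to 1 than the plain ratio of any of the 10 genes. The count called lower was 2 (Egr2 and Fos) with a pseudocount of 0.1 and under each of the 3 other scalings. It was 0 with a pseudocount of 5, with a minimum of 5 FPKM (which drops Egr2) and with a 3-fold limit. With a 1.5-fold limit it was 3 (Egr2, Fos and Fosl2), and 1 gene, Jund, was called higher. The share of all genes kept that was called lower also moved with the setting. It was above the reported 4.3% with the pseudocount of 0.1, the 3 other scalings, the minimum of 5 FPKM and the 1.5-fold limit. It was below 4.3% with the pseudocount of 5 and the 3-fold limit. The share called higher was above 3.43% with the 1.5-fold limit. Whether counts this small among the 10 genes differ from those shares cannot be judged. The median of the genes was -0.17 with no filter, which adds the low genes Fosb and Fosl1, and -0.63 without Jun, Jund and Fosl1, an alternative chosen after seeing the data. It stayed between -0.49 and -0.36 under the other pseudocounts, scalings and filter. Over all genes, where 346 were higher and 434 lower as reported, 589 were higher and 676 lower with a pseudocount of 0.1, 147 and 187 with a pseudocount of 5, 1103 and 1032 with a 1.5-fold limit, and 130 and 140 with a 3-fold limit. With both libraries scaled to the same sum (as TPM), which also raises all values against the pseudocount and the minimum so that 11456 genes were kept, 540 were higher and 561 lower. Of the genes in the other pathway lists, 4 were higher and 15 lower as reported, where 3.43% and 4.3% of all genes kept were. The number kept is given above for each list. AP-1 targets made up 6 of the 15, and the lists were chosen with earlier results known, so the direction is no independent evidence. The higher count was 2 with a pseudocount of 5, 12 with a 1.5-fold limit and 1 with a 3-fold limit. The lower count was 12 with the pseudocount of 5, 23 with the 1.5-fold limit and 10 with the 3-fold limit. The pseudocount acts by construction on low genes, and the other causes were not tested. No paired analysis was possible because there is 1 library per genotype, which also leaves no replicate to leave out.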
